A study of Mus musculus with 8 samples.

Results

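The 9 genes described here encode the enzymes that write, copy and remove methyl groups on DNA: Dnmt1, Uhrf1, Dnmt3a, Dnmt3b, Dnmt3l, Tet1, Tet2, Tet3 and Tdg. They were chosen by gene name from the 48440 genes of the deposited tables, and all 9 were found. Polyadenylated RNA was sequenced from whole gonads of mouse embryos at embryonic day 11.5, when the gonad of XY embryos begins to follow the testis path. The 4 groups were XY Kdm6b-null, XY wild type, XX Kdm6b-null and XX wild type, with 2 libraries in each group and 8 in all, and each library pooled 2 pairs of gonads. Kdm6b encodes a demethylase of histone H3, not of DNA. The sources used here do not give the strain or the design of the null allele.

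DNMT1 copies existing CpG methylation onto newly made DNA strands during replication, and UHRF1 brings it to hemimethylated sites. DNMT3A and DNMT3B place new methyl groups, and DNMT3L is their partner without activity of its own, known from male germ cells and growing oocytes. TET1, TET2 and TET3 oxidise 5-methylcytosine, and TDG, a thymine DNA glycosylase, excises the later oxidation products so that base excision repair can restore cytosine. The midgestation gonad is a setting of wide methylation change, because the primordial germ cells within it lose most of their DNA methylation. In mouse, TET2 has also been reported to demethylate the promoter of Sry, the Y-linked gene that starts testis development.

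The promoter windows of 4 of the genes are shown because they include the window richest in CpG of the 9 genes and a poor one, and carry the only motif matches found in them. Each window spans 250 bases before and 50 bases after a transcription start in RefSeq, build GRCm38.p6, read 5′ to 3′ on the strand of the gene, and is the window of that gene that holds the most annotated starts. In the first pair, for Dnmt1 (chr9:20952574-20952873, minus strand) and Uhrf1 (chr17:56304063-56304362, plus strand), capitals mark matches to a motif of E2F, the family of factors that drives many S phase genes. In the second pair, for Tet2 (chr3:133544341-133544640, minus strand) and Dnmt3l (chr10:78055085-78055384, plus strand), capitals mark CpG dinucleotides.
Dnmt1: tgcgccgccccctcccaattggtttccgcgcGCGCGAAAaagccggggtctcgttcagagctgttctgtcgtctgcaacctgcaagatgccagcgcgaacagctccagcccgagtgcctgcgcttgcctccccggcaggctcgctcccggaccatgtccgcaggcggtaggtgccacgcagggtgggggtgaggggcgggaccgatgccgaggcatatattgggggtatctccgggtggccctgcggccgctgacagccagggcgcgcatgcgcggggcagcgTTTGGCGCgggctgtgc
Uhrf1: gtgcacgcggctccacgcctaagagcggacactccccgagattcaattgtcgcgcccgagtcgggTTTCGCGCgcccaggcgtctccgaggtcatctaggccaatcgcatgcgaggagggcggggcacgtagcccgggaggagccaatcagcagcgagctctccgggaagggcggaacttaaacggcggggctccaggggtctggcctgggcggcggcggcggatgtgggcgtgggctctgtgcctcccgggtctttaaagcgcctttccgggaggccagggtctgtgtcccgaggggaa
Tet2: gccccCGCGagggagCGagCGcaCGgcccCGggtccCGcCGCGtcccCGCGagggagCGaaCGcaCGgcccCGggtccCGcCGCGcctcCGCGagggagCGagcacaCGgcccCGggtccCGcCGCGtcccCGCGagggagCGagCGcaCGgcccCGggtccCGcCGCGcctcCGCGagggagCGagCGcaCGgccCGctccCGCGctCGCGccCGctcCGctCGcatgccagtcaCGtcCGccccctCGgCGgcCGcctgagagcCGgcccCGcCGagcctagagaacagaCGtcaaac
Dnmt3l: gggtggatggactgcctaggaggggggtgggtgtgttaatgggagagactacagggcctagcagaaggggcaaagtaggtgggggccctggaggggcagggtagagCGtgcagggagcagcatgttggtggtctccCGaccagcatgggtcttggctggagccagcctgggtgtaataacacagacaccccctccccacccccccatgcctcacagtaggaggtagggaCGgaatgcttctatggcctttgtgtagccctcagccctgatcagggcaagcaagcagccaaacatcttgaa

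The Tet2 window held 57 CpG dinucleotides, more than 99.8% of the 32851 windows of all genes, whereas the Dnmt3l window held 3, more than 23.3% of them. The other 2 windows of Dnmt3l held 6 and 4. The windows shown for Dnmt1 and Uhrf1 held 33 each, while the other windows of Dnmt1 held 2 and 12 and that of Uhrf1 12. Over the 16 windows of the 9 genes the median was 20 CpG dinucleotides, against 7 over all windows. The motif was searched as TTTGGCGC, TTTCCCGC, TTTCGCGC or TTTGCCGC on both strands. It matched 2 of the 16 windows, those shown for Dnmt1 and Uhrf1, and 2.26% of all windows. The Dnmt1 window held 2 matches, the first 219 bases before its start and the second after that start. The match in the Uhrf1 window lay 185 bases before its start. The other windows of Dnmt1 and Uhrf1, whose starts lie further upstream, held none. A match describes letters only; no binding or methylation was measured in these samples.

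On build GRCm38, Dnmt1 lies at chr9:20907206-20959888 (minus strand), Uhrf1 at chr17:56303321-56323486 (plus strand), Dnmt3a at chr12:3806007-3914443 (plus strand) and Dnmt3b at chr2:153649450-153687730 (plus strand). Chromosome 10 holds 3 of the genes, Dnmt3l at chr10:78041947-78063622 (plus strand), Tet1 at chr10:62804570-62899118 (minus strand) and Tdg at chr10:82629828-82650799 (plus strand). Tet2 lies at chr3:133463679-133545139 and Tet3 at chr6:83362373-83459084, both on the minus strand. Their annotated exons span 2.99 kb (Dnmt3l) to 16.87 kb (Tet2), so levels are compared between genes only per kilobase of exon.

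All 8 libraries had a similar depth, with 19107103 to 19828638 counts on genes, and a value of 0 allows up to 3 counts, which is 2.91 to 3.09 on the normalized scale and covers counting error only. Kdm6b, the check of the genotype labels, had 1238 and 1037 normalized counts in XY Kdm6b-null against 3399 and 3181 in XY wild type. The XX values were 1249 and 1125 in XX Kdm6b-null against 2218 and 2796 in XX wild type. It fell by 1.30 on the log2 scale (SE 0.10) over both sexes, with an adjusted p of 0.0099 in limma. With each sex fitted alone, its adjusted p in limma was 0.12 in XY and 0.19 in XX. In the authors' deposited tables its adjusted p was 8.2e-25 in XY and 7.1e-07 in XX. Since Kdm6b itself did not pass in limma within a sex, not passing there does not show that a gene was unchanged. Of 16567 genes tested over both sexes, 4 passed (0.0241%), Kdm6b, its antisense partner Kdm6bos, Des and Scrn1, the last 3 named here after their values were seen. How strand was counted is not known, so reads of Kdm6b and Kdm6bos cannot be told apart. Sry had 19.5 and 6.18 normalized counts in XY Kdm6b-null against 57.4 and 73.8 in XY wild type, and 0 in the XX libraries. The labels name pre-Sertoli cells for XY and pre-granulosa cells for XX but describe no sorting, and markers of germ, erythroid, endothelial and macrophage cells were all present. Among the libraries, XX wild type replicate 1 stood apart. Its log2 values correlated with those of its replicate at r = 0.962, whereas r was 0.9796 to 0.9851 between the replicates of each other group. Each r used the genes with a mean of at least 10 over the 2 libraries compared. The 7 adrenal cortex markers, none at 0 in every library, summed to 510.2 and 606.1 normalized counts in XX Kdm6b-null, against 2370 in this library and 383.4 in XX wild type replicate 2. The XY libraries had 480.9 and 610.4 in Kdm6b-null against 582.7 and 644 in wild type. The XX fold changes below are therefore given with and without that library. A fit without it leaves XX wild type replicate 2 alone in its group and cannot measure the spread of XX wild type. Only effect sizes are given in the text from fits that leave a library out.

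The pair that maintains methylation had the highest levels of the 9 genes per kilobase of annotated exon (plot of levels per kilobase). This length merges all annotated exons of a gene, and which of them were used here was not measured. Before division by length the XY wild type means were 8678 normalized counts for Dnmt1, 8588 for Dnmt3a and 5503 for Uhrf1, so the order depends on it. Per kilobase of annotated exon, and as means over the 4 XY libraries, Uhrf1 led at 1257 normalized counts, ahead of 96.7% of the genes kept, followed by Dnmt1 at 1179. Their XY ranges, 1160 to 1317 for Uhrf1 and 1143 to 1219 for Dnmt1, overlapped, so that their order was not resolved. Dnmt3a followed at 533.1, Tdg at 324.5, Tet3 at 201.9, Dnmt3b at 116.8, Tet2 at 99.2 and Tet1 at 86.2. Tet2 (91.9 to 111) and Tet1 (81.1 to 94.4) overlapped, whereas the neighbours from Dnmt1 down to Tet2 did not. The order was the same in XX, from Uhrf1 at 1290 and Dnmt1 at 1131 to Tet2 at 102 and Tet1 at 77.1. There Dnmt3a, Tdg and Tet3 overlapped in turn, as did Dnmt3b and Tet2. The XX and XY tables were scaled apart by the authors, so levels are given side by side and not compared between sexes.

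**Figure D1:**
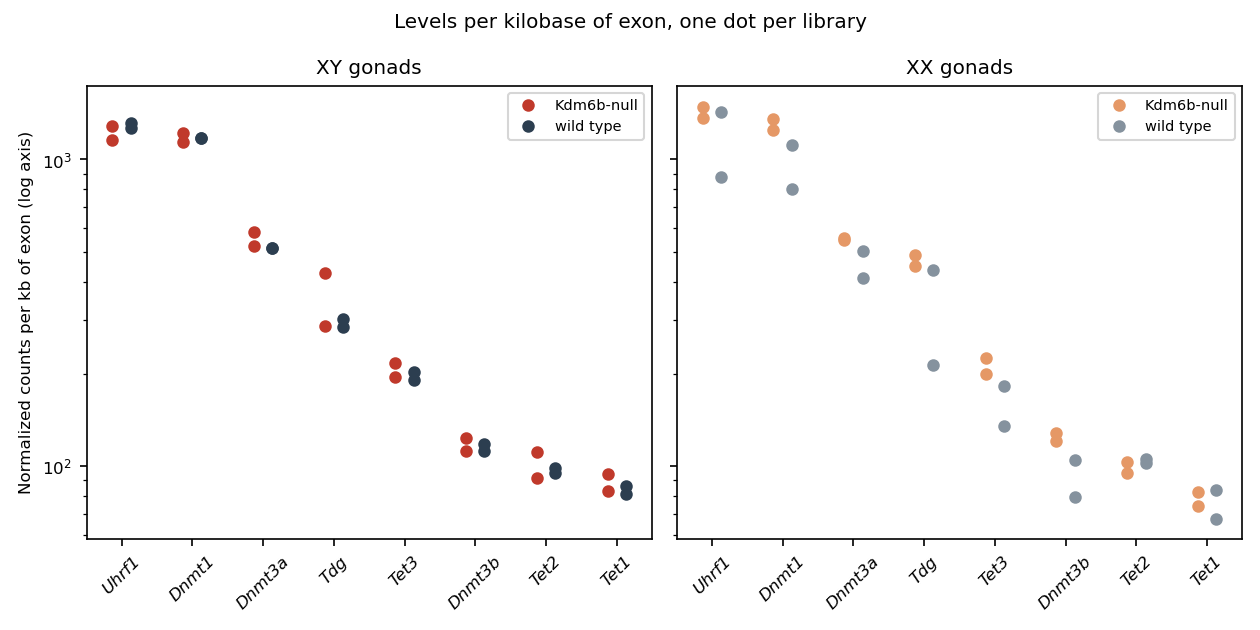
Levels of 8 of the genes in normalized counts per kilobase of exon, on a log axis, with XY libraries on the left and XX on the right and one dot per library. Dnmt3l, at 0 to 1.03 per kilobase, is left off; Uhrf1 and Dnmt1 sit above the other genes in both panels, and the lowest XX wild type dot of most genes is replicate 1.

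Within the TET family, Tet3 made up 44.3 to 54.7% of the summed per-kilobase level in any library, Tet2 24.7 to 33.5% and Tet1 20.1 to 22.5%. Tet3 was the highest of the 3 in all 8 libraries. Within the DNMT family, Dnmt1 made up 62 to 67% and Dnmt3a 27 to 31.8%. Dnmt3b held 6 to 6.7%. Dnmt3l reached at most 0.058%.

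Loss of Kdm6b was not accompanied by a detected change of any of the 8 genes that could be tested in XY gonads. The highest XY library exceeded the lowest by a ratio of at most 1.21 for 7 of them, and of 1.5 for Tdg, against a median of 1.2 over the 13182 XY genes with a mean of at least 50. Among the maintenance genes, Dnmt1 had 8995 and 8429 normalized counts in XY Kdm6b-null, against 8690 and 8666 in XY wild type. The groups overlapped, and Dnmt1 had the lowest such ratio of the 8, 1.07. The log2 fold change was 0.00 (SE 0.08, 95% interval -0.19 to 0.20). Uhrf1 had 4942 and 5469 in XY Kdm6b-null, against 5607 and 5398 in XY wild type, a log2 fold change of -0.08 (SE 0.08, 95% interval -0.29 to 0.13). With all libraries kept, it was the only one of the 8 tested genes below 0 in XY.

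Of the de novo genes, Dnmt3a had 9642 and 8668 normalized counts in XY Kdm6b-null, against 8599 and 8578 in XY wild type. Both null libraries lay above both wild type libraries, and the log2 fold change was 0.09 (SE 0.09, 95% interval -0.13 to 0.31). Groups that did not overlap and were higher in Kdm6b-null made up 16.6% of the 16821 genes tested in XY, and those lower 16.3%. Dnmt3b had 633 and 574 normalized counts in XY Kdm6b-null, against 572 and 606 in XY wild type, and the groups overlapped (log2 fold change 0.03, SE 0.10).

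Among the TET genes, Tet1 had 1459 and 1281 normalized counts in XY Kdm6b-null, against 1332 and 1254 in XY wild type (log2 fold change 0.08, SE 0.09). Tet2 had 1878 and 1550 in XY Kdm6b-null, against 1601 and 1666 in XY wild type (log2 fold change 0.06, SE 0.11). The null libraries of Tet2 lay on either side of the wild type pair. Tet2 had a 95% interval of -0.21 to 0.34 in the same XY gonads in which the mean level of Sry was 19.6% of wild type, a difference that itself had an adjusted p of 0.69 in limma and 0.0835 in the authors' deposited table. Tet3 had 3630 and 3269 in XY Kdm6b-null, against 3389 and 3193 in XY wild type (log2 fold change 0.07, SE 0.08), with overlapping groups.

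Tdg had the widest spread of the 8 tested genes. It had 2292 and 1538 normalized counts in XY Kdm6b-null, against 1619 and 1526 in XY wild type, so that replicate 1 of the null group stood above the other 3 libraries. The log2 fold change of 0.26 (SE 0.19, 95% interval -0.22 to 0.73) became -0.03 without XY Kdm6b-null replicate 1.

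**Figure D2:**
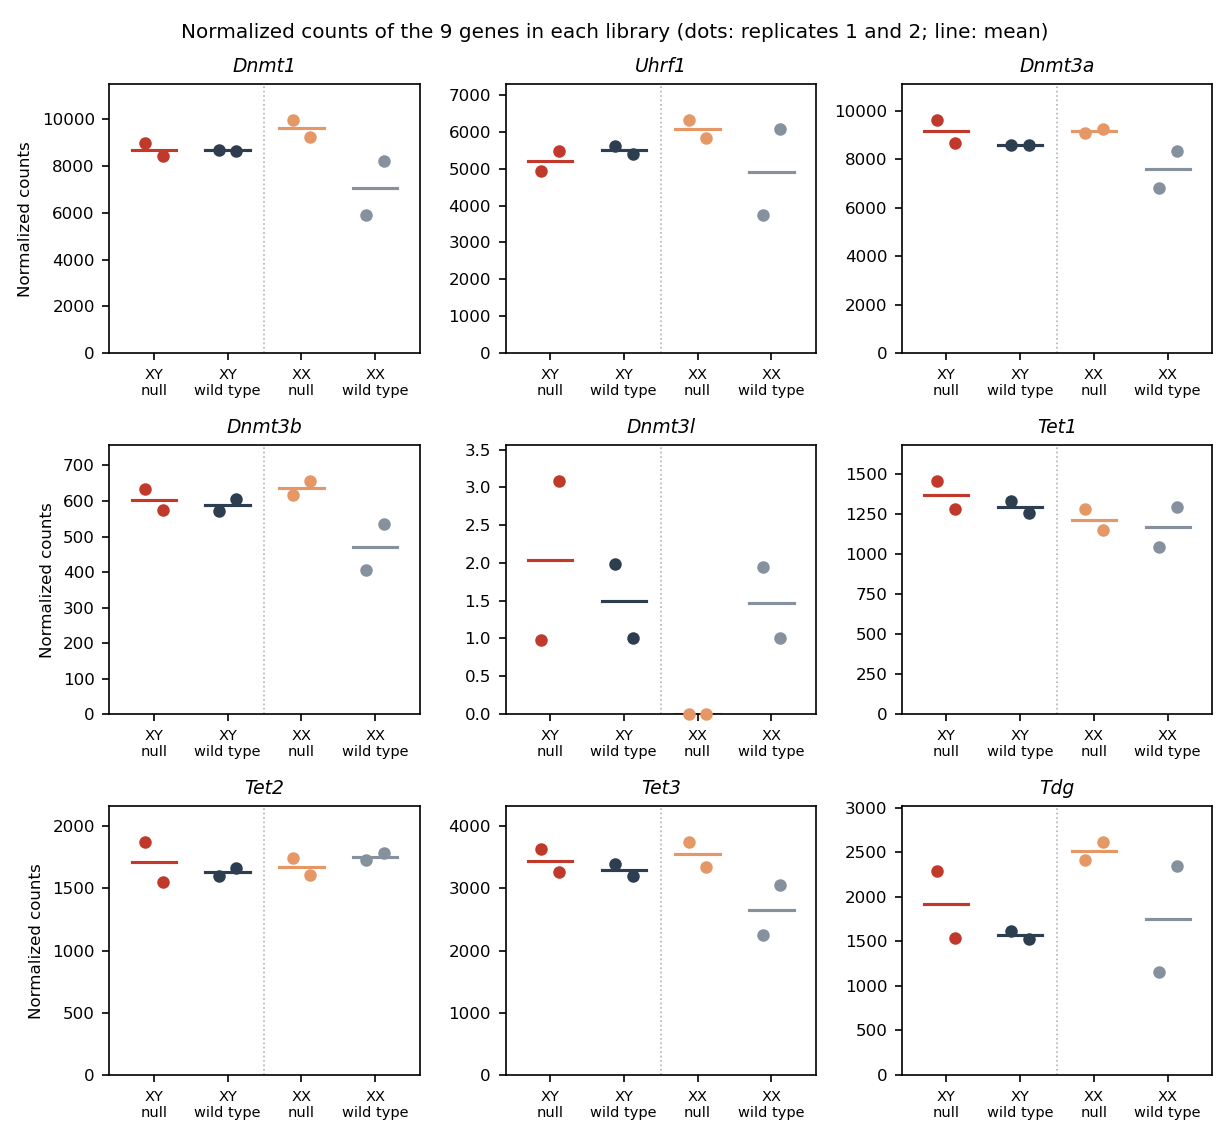
Normalized counts of the 9 genes in each library, in panels that start at 0, with Kdm6b-null left of wild type for XY and then XX; dots are replicates 1 and 2 and the line is their mean. The XY groups lie close together, while XX wild type replicate 1, the left dot of the last group, is the lowest XX library for 7 genes, Tet2 and Dnmt3l being the exceptions.

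None of the 8 tested genes passed an adjusted p of 0.05 in XY, where 0 of 16821 genes did (0%), and 0 of the 8 had an unadjusted p under 0.05, against 4.96% of all genes. The adjusted p of each was 1.0, and 0.9999 in the authors' deposited table, in which 72 of 17890 genes passed (0.402%). The 95% interval of all 8 lay within a factor of 2 in either direction. Above 0 lay 7 of the 8, and 8407 of the 16821 genes. The median log2 fold change was 0.06 over the 8 and 0.00 over all genes. Without XY Kdm6b-null replicate 1, 1 of the 8 lay above 0 and 7 below, at a median of -0.02. With each other XY library left out the median over the 8 was 0.06 to 0.15. In whole-gonad RNA, fewer cells of a type and less RNA per cell cannot be told apart.

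In XX gonads most of the genes read higher in Kdm6b-null than in wild type, by log2 fold changes of up to 0.61, but none passed the test and much of the difference rested on 1 library. Dnmt1 had 9998 and 9238 normalized counts in XX Kdm6b-null, against 5902 and 8225 in XX wild type. The groups did not overlap, and the log2 fold change was 0.46 (SE 0.18, 95% interval 0.00 to 0.92, adjusted p 0.36 in limma). Without XX wild type replicate 1 it was 0.22. Uhrf1 had 6334 and 5830 in XX Kdm6b-null, against 3740 and 6066 in XX wild type. Here the second wild type library lay between the null libraries, and the log2 fold change of 0.35 (SE 0.24) became 0.00 without replicate 1.

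Dnmt3a had 9090 and 9241 normalized counts in XX Kdm6b-null, against 6832 and 8351 in XX wild type, with a log2 fold change of 0.28 (SE 0.14), or 0.13 without the first wild type library. Dnmt3b had 616 and 658 in XX Kdm6b-null, against 407 and 534 in XX wild type. Neither pair overlapped. The log2 fold change of Dnmt3b was 0.45 (SE 0.16, 95% interval 0.04 to 0.85, adjusted p 0.34 in limma), and 0.25 without that library.

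Tet1 had 1279 and 1148 normalized counts in XX Kdm6b-null, against 1045 and 1295 in XX wild type, and Tet2 had 1743 and 1608, against 1726 and 1785. Both overlapped, with log2 fold changes of 0.06 (SE 0.14) for Tet1 and -0.07 (SE 0.10) for Tet2. The Tet1 value became -0.10 without XX wild type replicate 1, and the Tet2 value became -0.09. Tet3 had 3755 and 3342 in XX Kdm6b-null, against 2258 and 3053 in XX wild type, with no overlap. Its log2 fold change was 0.43 (SE 0.17, adjusted p 0.35 in limma), or 0.21 without that library.

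Tdg had 2414 and 2620 normalized counts in XX Kdm6b-null, against 1152 and 2346 in XX wild type. Its log2 fold change, the highest of the 8 at 0.61, also had the widest error (SE 0.33, 95% interval -0.21 to 1.44). Leaving out XX wild type replicate 1 gave 0.10, and leaving out the other wild type library gave 1.13. The 2 wild type libraries of Tdg differed by 1.03 on the log2 scale.

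**Figure D3:**
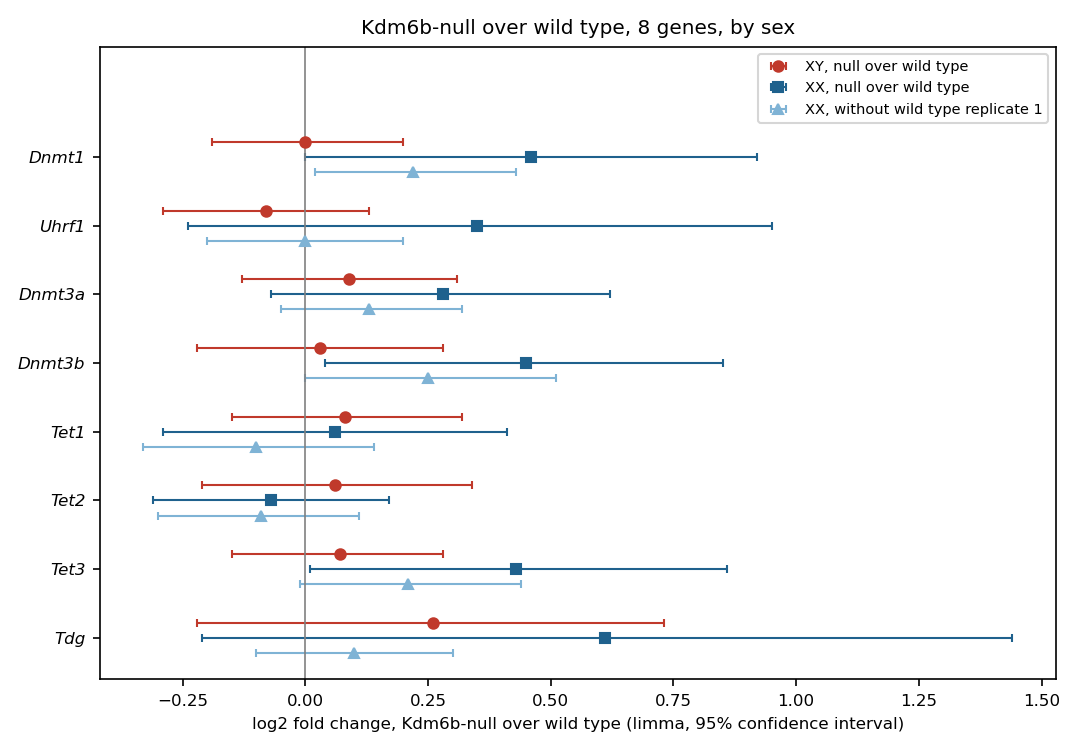
log2 fold changes of Kdm6b-null over wild type with 95% confidence intervals from limma for 8 genes, in XY (circles), in XX (squares) and in XX without wild type replicate 1 (triangles). The XY values lie between -0.08 and 0.26. The XX values reach 0.61 and lie between -0.10 and 0.25 without that library. The triangles leave 1 XX wild type library, so their intervals do not measure the spread of that group.

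Groups did not overlap and were higher in XX Kdm6b-null for 5 of the 8 genes, Dnmt1, Dnmt3a, Dnmt3b, Tet3 and Tdg, against 27.0% of the 17028 genes tested in XX; 22.5% of all genes did not overlap and were lower. Of the 8, 3 had an unadjusted p under 0.05 (Dnmt1, Dnmt3b and Tet3), against 14.0% of all genes, and none an adjusted p under 0.05, with 0 of all genes passing (0%). The authors' deposited table gave adjusted p-values of 0.193 for Dnmt1, 0.251 for Tet3, 0.357 for Dnmt3b and 0.42 for Dnmt3a, with 407 of 14704 genes passing (2.77%). Above 0 lay 7 of the 8, and 8533 of the 17028 genes. The median log2 fold change was 0.39 over the 8 and 0.00 over all genes. Without XX wild type replicate 1 the median over the 8 was 0.12, with 6 of them above 0. With that library kept and XX wild type replicate 2 left out, the median over the 8 was 0.65.

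The 2 libraries of XX wild type lay further apart than those of the other groups. The median gap between its 2 libraries was 0.41 on the log2 scale over the 8 genes and 0.21 over 13440 genes, whereas the gaps in the other groups were 0.07 to 0.15 over the 8 genes and 0.10 to 0.15 over all. Tet2 was the exception, at a deviation of 0.01 from the XX mean in replicate 1, where Dnmt1, Dnmt3b, Uhrf1, Tet3 and Tdg deviated by -0.47, -0.42, -0.52, -0.43 and -0.82. In the same library the 12 germ cell markers had a median deviation of 0.91, the adrenal cortex markers 2.13 and the 20 genes of S phase and mitosis -0.23. Of the 16 germline genes known to be silenced by DNA methylation, the 13 that passed the low-value filter in XX had 1.63. That filter used the mean over the XX libraries, this high library included. The 12 germ cell markers, none at 0 in every library, summed to 3088 and 2740 normalized counts in XX Kdm6b-null and to 2849 and 1807 in XX wild type. Tet1, which primordial germ cells are known to express, was at its lowest XX value in this library. The 10 endothelial markers, none at 0 in every library, summed to 19115 and 18943 in XX Kdm6b-null and to 12869 and 14132 in XX wild type. All 10 lay above 0 in XX, 7 of them with an unadjusted p under 0.05, at a median log2 fold change of 0.39, or 0.37 without replicate 1. The part of these cell types in the XX differences was not tested.

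**Figure D4:**
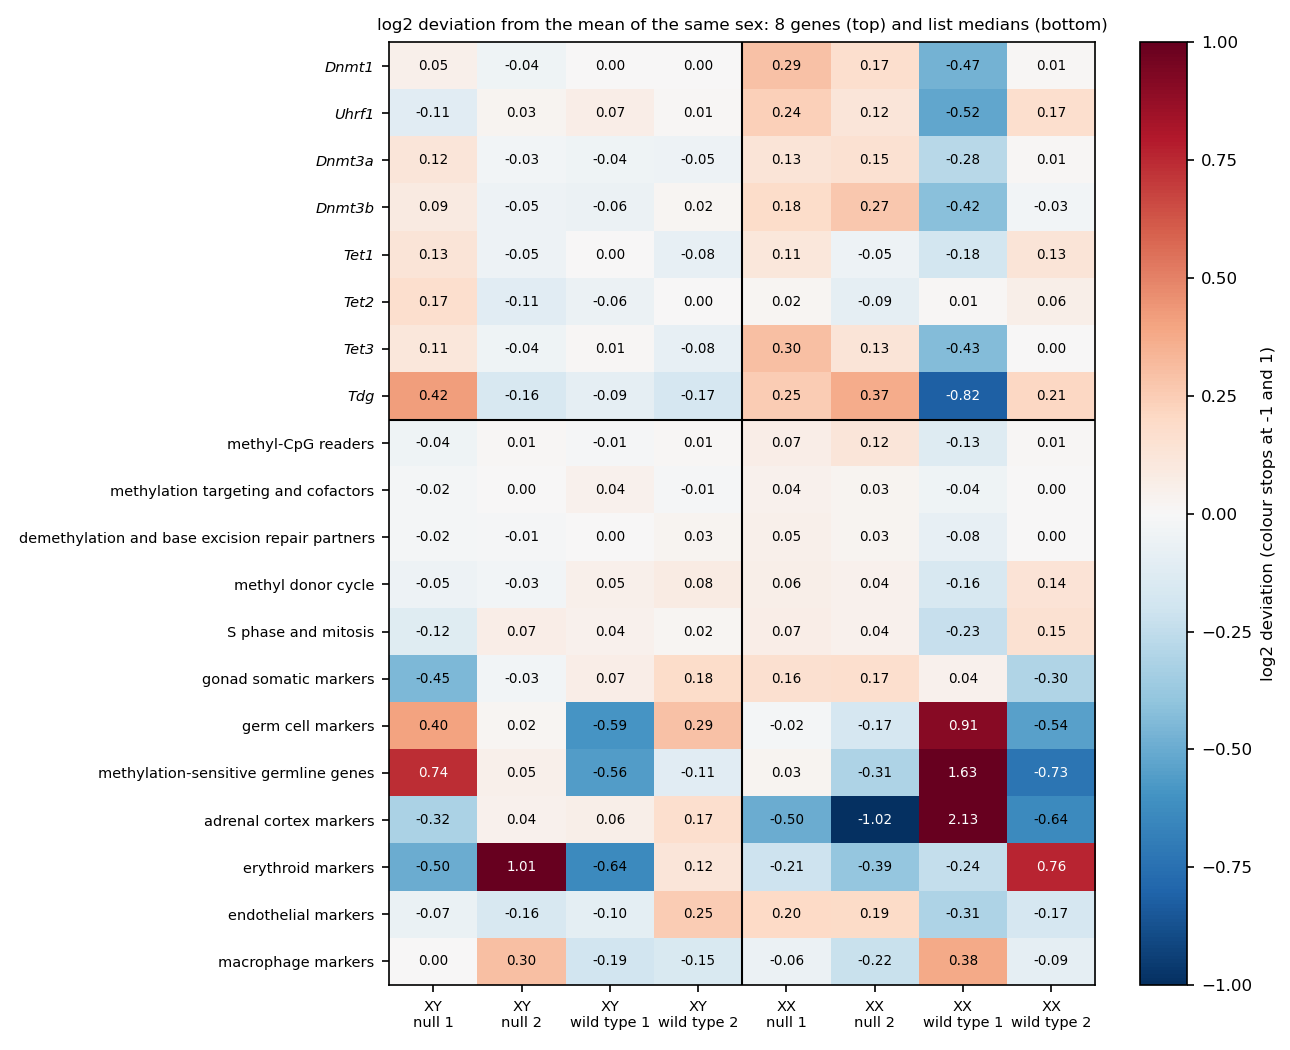
log2 deviation of each library from the mean of its sex, with Kdm6b-null left of wild type within each sex. The upper rows show 8 of the genes, and the lower rows the median over the members of 12 gene lists that passed the low-value filter in that sex. XX wild type replicate 1 is low for 7 of the genes, at -0.82 for Tdg, and high for germ cell, germline and adrenal cortex lists, at 2.13 for the last.

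Averaged over the sexes, Tet3 had a log2 fold change of 0.25 (SE 0.10) and Dnmt3b of 0.24 (SE 0.10), both with an unadjusted p of 0.042 and an adjusted p of 0.33 in limma. These 2 of 8 were the ones with an unadjusted p under 0.05, against 14.6% of all genes. The values were 0.23 for Dnmt1, 0.18 for Dnmt3a, 0.13 for Uhrf1, 0.07 for Tet1, 0.00 for Tet2 and 0.43 for Tdg (SE 0.22). All 8 intervals lay within a factor of 2, and 7 values lay above 0, as did 8604 of the 16567 genes. The median was 0.21 over the 8 and 0.01 over all genes. None of the 8 passed. Dropping XX wild type replicate 1 lowered the median of the 8 to 0.11. Dropping replicate 2 of that group instead raised it to 0.32.

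The effect of the genotype was not shown to differ between XY and XX for any of the genes. As the XY effect minus the XX effect, 6 of the 8 lay below 0, with a median of -0.36. Over all 16567 genes the median was -0.02, with 7881 above 0. The smallest p was that of Dnmt1, whose difference was -0.46 (SE 0.22, 95% interval -0.96 to 0.04, adjusted p 0.60 in limma). Dnmt3b had -0.41 (SE 0.20), Uhrf1 -0.43 (SE 0.28), Tet3 -0.37 (SE 0.21), Tdg -0.36 (SE 0.44) and Dnmt3a -0.19 (SE 0.17), while Tet1 had 0.02 (SE 0.18) and Tet2 0.13 (SE 0.15). An unadjusted p under 0.05 was reached by 0 of the 8, against 8.49% of all genes, and 0 of 16567 genes passed adjustment (0%). Without XX wild type replicate 1 the median of the 8 was -0.06, and 5 of them lay below 0. With XX wild type replicate 2 left out instead the median was -0.60, and 7 of the 8 lay below 0.

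Dnmt3l RNA was at the limit of detection in every group. It had 1 and 3 counts in the XY Kdm6b-null libraries, 2 and 1 in XY wild type, 0 and 0 in XX Kdm6b-null, and 2 and 1 in XX wild type, or 10 counts in all. No library exceeded the 3 counts that a library at 0 could hold, so no fold change is given and the gene was not tested. The overlapping gene Aire, on the other strand, reached at most 48.8 normalized counts. Dnmt3c, the rodent copy of Dnmt3b that methylates young retrotransposons in male germ cells, is listed in the files as Dnmt3c-ps and held 0 to 2.97 normalized counts. For the other genes, named pseudogenes (Tdg-ps, Dnmt3a-ps1) and overlapping genes reached at most 70.8 normalized counts, the value of Glt8d2 over Tdg.

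Ratios of 2 genes within 1 library do not depend on how a table was scaled, so they allow all 8 libraries to be set together. The log2 ratio of Tet1 to Tet3 averaged -1.44 ± 0.13 in Kdm6b-null and -1.26 ± 0.11 in wild type (SD, n = 4 each), a difference of -0.18 with p = 0.11 in a two-sided exact permutation test. That was the smallest p of the 10 tests, at 0.57 after Benjamini-Hochberg adjustment. The smallest p possible with 4 against 4 libraries is 0.029. With 10 tests, a ratio alone at that p could not pass after adjustment. The adjusted values therefore do not show that the ratios were unchanged. In XY the ratio lay between -1.35 and -1.31 in all 4 libraries. In XX it was -1.55 and -1.54 in Kdm6b-null and -1.11 and -1.24 in wild type. Tet2 to Tet3 averaged -1.05 ± 0.07 in Kdm6b-null and -0.80 ± 0.30 in wild type (SD, n = 4 each; exact permutation p = 0.14), where XX wild type replicate 1 had -0.39.

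The ratio of Uhrf1 to Dnmt1, the maintenance pair, averaged -0.70 ± 0.11 in Kdm6b-null and -0.60 ± 0.11 in wild type (SD, n = 4 each; exact permutation p = 0.40). Dnmt3a to Dnmt3b had the narrowest range of the ratios over the 8 libraries, 3.81 to 4.07. It averaged 3.88 ± 0.05 in Kdm6b-null and 3.94 ± 0.10 in wild type (SD, n = 4 each; exact permutation p = 0.40). The same ratio averaged 3.89 ± 0.05 in XY and 3.93 ± 0.11 in XX (SD, n = 4 each; exact permutation p = 0.54). For the other ratios between XY and XX the exact permutation p was 0.37 to 0.94 (n = 4 each). Dnmt3l to Dnmt3b, at -9.36 to -7.11, rests on the few counts of Dnmt3l and the pseudocount of 1.

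Across the 8 libraries, with log2 values centred within each sex, the genes most like each of the 8 were listed from 12122 candidates by Pearson r, as a description. Uhrf1 was closest to Rrm2 (r = 0.997), a ribonucleotide reductase subunit of S phase, and Elf2 (r = 0.991). Dnmt1 was closest to Hcfc1 and Rapgef1 (r = 0.998 each), Dnmt3a to Pelp1 (r = 0.994) and Gpr161 (r = 0.991), and Dnmt3b to Mapk14 (r = 0.997) and Ctdp1 (r = 0.994). Tet1 was closest to Plcb1 (r = 0.996) and Med1 (r = 0.988), Tet3 to Gatad2b (r = 0.994) and Pom121 (r = 0.992), and Tdg to Mllt10 (r = 0.988) and Col2a1 (r = 0.986). Tet2 had the lowest best match, Isl1 (r = 0.952), followed by Ppp4r1l-ps (r = 0.950). All points share XX wild type replicate 1, on which such likeness can rest. Between Dnmt1 and Uhrf1 r was 0.90 over 8 libraries and 0.00 over the 7 without it, whereas between Dnmt1 and Tet3 it was 0.98 and 0.92.

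In limma the partners of these enzymes were not called either, in a test that Kdm6b itself did not pass within a sex. Of 19 genes for demethylation and base excision repair, 7 lay above 0 in XY and 11 in XX, with median log2 fold changes of -0.02 in XY and 0.07 in XX (0.04 without XX wild type replicate 1). Cxxc5, a CXXC zinc finger protein known to recruit TET2, had 1755 and 1993 normalized counts in XY Kdm6b-null, against 1567 and 1788 in XY wild type. In XX it had 1827 and 2032 in Kdm6b-null, against 936.2 and 1010 in wild type. Both XX wild type libraries were low, not replicate 1 alone. Its log2 fold change was 0.99 in XX (SE 0.11, adjusted p 0.19 in limma), and 0.93 without XX wild type replicate 1. It was 0.57 over both sexes (SE 0.08, adjusted p 0.097 in limma), or 0.55 without that library. The XY effect minus the XX effect was -0.83 (adjusted p 0.57 in limma). Gadd45a, the other gene of this list that the naming rule picked, had 0.24 over both sexes (SE 0.12), or 0.20 without that library.

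Of 8 methyl-CpG readers 3 lay above 0 in XY, at a median of -0.02 on the log2 scale, and all 8 in XX, at 0.13. The XX median was 0.09 without XX wild type replicate 1. Mbd3, a subunit of the NuRD complex, had 0.07 in XY (SE 0.09) and 0.29 in XX (SE 0.15), which became 0.10 without it. Of 13 genes that target methylation or assist it, 5 lay above 0 in XY, at a median of -0.03, and 8 in XX, at 0.12, and the XX median was 0.01 without that library. Trim28, the corepressor of KRAB zinc finger proteins, had 16577 and 17716 normalized counts in XX Kdm6b-null, against 10077 and 13564 in XX wild type. Its XX log2 fold change was 0.55 (SE 0.18, adjusted p 0.32 in limma), or 0.34 without replicate 1. Kdm2b, which binds unmethylated CpG islands, had 0.04 in XY (SE 0.07) and 0.38 in XX (SE 0.12), or 0.26 without replicate 1. The 11 genes of the methyl donor cycle had medians of -0.13 in XY and 0.10 in XX, and the XX median was -0.06 without that library. Mat2a, which makes S-adenosylmethionine, had -0.18 in XY (SE 0.08), and Shmt1, a serine hydroxymethyltransferase, -0.16 (SE 0.08).

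Of 16 germline genes whose promoters are known to be silenced by DNA methylation, 12 passed the low-value filter in XY, where 11 lay above 0 at a median log2 fold change of 0.58, and 13 in XX, where 3 lay above 0 at a median of -0.57. The XX median was 0.28 without XX wild type replicate 1. The 16 genes summed to 990.1 and 544.5 normalized counts in XY Kdm6b-null, against 457 and 582.2 in XY wild type, with overlapping groups. The genes tested in XY had median log2 deviations from the XY mean of 0.74 and 0.05 in Kdm6b-null. In XY wild type these were -0.56 and -0.11. The lowest XY median with a library left out was 0.36. Dazl, a germ cell RNA-binding protein, had 154 and 25.7 normalized counts in XY Kdm6b-null, against 88 and 35.9 in XY wild type. In XX it had 36.9 and 11.1 in Kdm6b-null, against 468 and 19.2 in wild type. Sycp1, of the synaptonemal complex, had 131 and 62.8 in XY Kdm6b-null, against 49.5 and 48.8 in XY wild type (log2 fold change 0.87, SE 0.38, and 0.35 without XY Kdm6b-null replicate 1). The 12 germ cell markers had medians of 0.38 in XY and -0.27 in XX, the XX median being 0.79 without that library and the XY median -0.06 without XY wild type replicate 1. Their summed level in XY was 3897 and 2988 normalized counts in Kdm6b-null and 2040 and 3208 in wild type. Kit, a receptor tyrosine kinase of germ cells, had a log2 fold change of 0.44 in XY (SE 0.23) and 0.91 in XX (SE 0.13). The Kit values were 0.14 in XY without XY Kdm6b-null replicate 1 and 0.77 in XX without XX wild type replicate 1. Dnd1, an RNA-binding protein of germ cells, had 0.00 in XY (SE 0.27) and -0.65 in XX (SE 0.45), which became -0.01 without XX wild type replicate 1.

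The 20 genes of S phase and mitosis, with which Dnmt1 and Uhrf1 are known to be expressed, had a median of -0.05 in XY, where 18 lay below 0. With 1 library left out the XY median was -0.16 to 0.04. In XX the median was 0.04 (-0.14 without XX wild type replicate 1). Mcm2, a replicative helicase subunit, had a log2 fold change of -0.04 in XY (SE 0.10), or 0.08 without XY Kdm6b-null replicate 1. In XX it had 0.32 (SE 0.15), or 0.13 without XX wild type replicate 1. Cdk1, the mitotic kinase, had -0.12 in XY (SE 0.11), or 0.03 without XY Kdm6b-null replicate 1. In XX it had -0.10 (SE 0.11), or -0.22 without XX wild type replicate 1. None of the genes in the 14 lists passed an adjusted p of 0.05 in limma in any of the comparisons of all libraries. The authors' adjusted p-values of these genes are not given here. Whether they passed with a library left out is not given, because such fits leave 1 library in a group. The pre-Sertoli markers had the lowest XY median of the lists, -1.44, with 5 of 5 below 0 and 4 at an unadjusted p under 0.05. The median over the methylation genes in the same XY gonads was 0.06.

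Marker lists of other cells varied with single libraries. The 10 erythroid markers had medians of 0.45 in XY, or -0.28 to 1.26 with 1 library left out, and -0.55 in XX, or -1.02 without XX wild type replicate 1. The log2 fold changes over both sexes were -0.20 for Hbb-y, an embryonic globin, and -0.18 for Alas2, of haem synthesis, or -0.22 and -0.29 without that library. Within a sex, Hbb-y had 0.70 in XY and -1.11 in XX, and Alas2 0.45 in XY and -0.82 in XX. Without XY Kdm6b-null replicate 2 the XY values were -0.03 and -0.27. Without XX wild type replicate 1 the XX values were -1.13 and -1.03. The 10 endothelial markers had a median of -0.21 in XY, or -0.35 to 0.03 with 1 library left out. Over both sexes Plvap, a protein of endothelial diaphragms, had 0.40 and Cdh5, the endothelial cadherin, 0.29, or 0.31 and 0.21 without XX wild type replicate 1. Plvap had -0.13 in XY and 0.93 in XX, and Cdh5 -0.22 in XY and 0.80 in XX. Without XY wild type replicate 2 the XY values were 0.05 and 0.06. Without XX wild type replicate 1 the XX values were 0.76 and 0.64. The 11 macrophage markers had medians of 0.44 in XY, or 0.19 to 0.48 with 1 library left out, and -0.27 in XX, or 0.06 without XX wild type replicate 1. Csf1r and Cx3cr1, both receptors of these cells, had 0.35 and 0.34 over both sexes. Csf1r had 0.73 in XY and -0.04 in XX, and Cx3cr1 0.49 in XY and 0.19 in XX. Without XX wild type replicate 1 the XX values were 0.09 and 0.13. The 9 somatic gonad markers had medians of -0.19 in XY, or -0.55 to 0.02 with 1 library left out, and 0.33 in XX, or 0.30 without XX wild type replicate 1. Over both sexes the transcription factor Lhx9 had -0.47 and the Polycomb protein Cbx2 0.26, which became -0.32 and 0.07 without that library. Lhx9 had -0.95 in XY and 0.01 in XX, and Cbx2 0.00 in XY and 0.51 in XX. Without XX wild type replicate 1 the XX values were 0.30 and 0.13. Of the 7 adrenal cortex markers 5 were tested in XY, at a median of 0.02, or -0.27 to -0.05 with 1 library left out, and 7 in XX, at -1.43, which was 0.07 without XX wild type replicate 1. Mc2r, the corticotropin receptor, had 0.48 and Hsd3b1, of steroid synthesis, -1.32 over both sexes, which became 0.66 and -0.38 without that library. Among the pre-Sertoli markers Inhbb, an inhibin and activin subunit, had -1.44 in XY and the transcription factor Dmrt1 -1.20. The pre-granulosa markers tested, 6 of 7, had medians of -0.28 in XY and -0.29 in XX (-0.23 without XX wild type replicate 1), with the transcription factors Irx3 at -0.91 and Runx1 at -0.37 over both sexes.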

How the data were processed

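RNA was sequenced with 100-base paired reads, per the labels' protocols, after oligo-dT selection. Per the submitters' processing notes, the authors used DESeq2 2.11.40.8, featureCounts 2.0.8, STAR 2.7.11 and cutadapt 4.9, on build GRCm38 (mm10). The sources used here do not give strand, multimapping or annotation release. As signal, the authors deposited normalized counts: they divided each library's counts by 1 size factor, XX and XY apart. Depths assume that the smallest step of a library is 1 count; all tests used the normalized values and no model of counts. The authors' deposited comparison tables hold log2 fold changes, p-values and a Wald score, which was not used; the XX table lacks a header, so its columns were read in the order of the XY table.

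Tests of single genes used limma 3.58.1 (R 4.3.3) with a variance trend on log2(normalized count + 1), which understates the change of low genes. Genes with a mean of at least 10 were kept, each sex was fitted alone, and all 8 libraries were fitted for the mean and the difference of the sex effects. P-values were adjusted by Benjamini-Hochberg over all genes kept, at 0.05. Ratios were tested by exact permutation over all 8 libraries. The sexes were not kept apart in it, so a difference between them adds to the spread of the genotype test. Groups came from the sample titles, and 0 value columns were left over. The fits were tested on simulated data. Exon lengths and positions came from GENCODE for GRCm38. The text names all 9 genes, Kdm6b, Sry, the 2 genes of each list with the smallest p over both sexes, and the 2 most alike genes of each of the 9 except Dnmt3l, whose counts were too few. A gene that this rule names is not reported here. The genes and the 14 other lists (all genes matched) were chosen with earlier results of these data known, as were the tests. The alternatives tried were another pseudocount, filter, scaling or variance model, the replicate number as a block, and leaving out each library; the last was extended to the genes named from the lists after the data were seen.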

Additional observations from a re-analysis of the deposited data

How the results depend on the processing

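Of 432 values of the 8 tested genes under the alternatives, 400 kept their direction and their side of the threshold. Of the rest, 21 turned direction, all from leaving out 1 library. The others crossed the threshold only in fits that left 1 library in a group. Another filter, another variance model, the replicate block and 1 fit of all 8 libraries leave the log2 fold change itself unchanged. They could not turn a direction, so the 400 does not measure how stable the directions are. In XY, where the 8 genes lay near 0, leaving out each library gave log2 fold changes of -0.01 to 0.18 for Tet1, -0.07 to 0.20 for Tet2, -0.01 to 0.14 for Tet3, -0.04 to 0.05 for Dnmt1, -0.04 to 0.10 for Dnmt3b and -0.03 to 0.54 for Tdg. In XX the range for Tet1 was -0.10 to 0.21. Over both sexes the ranges were -0.01 to 0.15 for Tet1, -0.07 to 0.07 for Tet2 and -0.04 to 0.31 for Uhrf1. For the XY effect minus the XX effect they were -0.13 to 0.18 for Tet1, -0.01 to 0.27 for Tet2 and -0.87 to 0.16 for Tdg. For XY over XX, the log2 ratio of Tet1 to Tet3 ranged from -0.04 to 0.10 and that of Dnmt3a to Dnmt3b from -0.08 to 0.01. The number of genes passing in XY was 0, with 1 without the variance trend and 23 under the replicate block. In XX it was 0, with 2 under the replicate block, 10 in 1 fit of all 8 libraries and 0 to 3489 with a library left out, where leaving out XX wild type replicate 1 gave 370 and leaving out XX wild type replicate 2 gave 3489. Over both sexes it was 4, with 1 at a filter of 50, 1 without the variance trend and 0 to 1278 with a library left out, the highest without XX wild type replicate 2. For the difference between the sexes it was 0, and 0 to 40. The causes were not tested. The replicate numbers were not shown to pair the libraries: replicate 1 minus 2 correlated between genotypes at 0.28 in XY and -0.09 in XX, and differences of the ratios within a replicate number have the same mean by construction. Another scaling moved the median of all genes by at most 0.02. Dnmt3l could not be compared at this depth.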
